A study of Mus musculus with 24 samples.

Results

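The genes described here are 10 genes of the postsynaptic side of the neuromuscular junction: the 5 muscle subunits of the nicotinic acetylcholine receptor (Chrna1, Chrnb1, Chrnd, Chrng and Chrne), the genes that gather the receptor under the nerve (Musk, Rapsn, Dok7 and Lrp4), and Ache, which encodes acetylcholinesterase. They were taken by gene name from a table of 28109 genes, and each of the 10 names matched 1 row. Messenger RNA was sequenced from 24 libraries of mouse myogenic cells: C2C12, an established myoblast line that the labels assign to the C3H strain, and primary myoblasts (PMs) from mice of 3 to 4 weeks, whose strain the labels write as C57/B6 (C57BL/6 in the study's methods). All cells were transfected, either with a control siRNA (siControl, named siLuc in the labels) or with siRNA pools that target both Tead1 and Tead4 (siTead1/4), and RNA was collected 24 h after transfection (day 0) or after 3 or 6 days in 2% horse serum, which lets myoblasts fuse into myotubes. Biological duplicates were labelled for all 12 groups, none of the cells carried a transgene, and no nerve was present. By the study's methods C2C12 cells were grown in DMEM, and PMs in IMDM on dishes coated with matrigel. Cell type, strain and culture conditions went together in every library, so they cannot be told apart.

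At the mature junction the nerve releases agrin, which binds Lrp4 on the muscle membrane. Lrp4 then activates the kinase MuSK, Dok7 is the cytoplasmic adaptor that MuSK needs, and rapsyn (Rapsn) ties acetylcholine receptors into dense clusters. The receptor is a pentamer of alpha, beta and delta subunits with gamma in the fetal form or epsilon in the adult form, and the exchange of Chrng for Chrne is a well known step of junction maturation. Acetylcholinesterase ends transmission by splitting acetylcholine, and the collagen tail encoded by Colq anchors it in the synaptic matrix. Muscle cells make many of these transcripts without a nerve when they differentiate in culture.

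Read counts were scaled to library size as CPM (the count of a gene per fixed library total), with TMM factors over the 24 libraries, and levels of different genes are compared only as CPM per kilobase of the gene length in the table. Total counts on genes lay between 25453830 and 52784510 per library. Tests were edgeR quasi-likelihood tests, a standard error (SE) follows each log2 fold change, and a gene was called when its Benjamini-Hochberg adjusted p over all tested genes was under 0.05 and its log2 fold change was beyond 1 in size. The silencing was visible at the targets: Tead4 lay at 59.5 to 197.2 CPM in the 6 siControl libraries of PMs and at 11.1 to 59.2 CPM in the 6 siTead1/4 libraries, and its fall was called at each day (log2 fold changes -2.36, -2.58 and -1.75). In C2C12 cells the fall of Tead4 was called at days 0 and 3 (-2.21 and -1.76) but not at day 6 (-1.28, edgeR adjusted p = 0.318). Neither call held with only the 4 libraries compared (edgeR adjusted p = 0.13 and 0.12). Both were also lost without any 1 library (-2.30 to -2.12 at day 0, -2.31 to -1.34 at day 3). Tead1 was called in PMs at days 0 and 3 (-1.44 and -1.68), although with all 24 libraries in 1 fit neither call held. The call of Tead1 at day 0 was also lost without any 1 library (-1.70 to -1.22), and that at day 3 in some such fits (-1.88 to -1.52 over all of them). In C2C12 cells it was not called (day 0: -2.46, edgeR adjusted p = 0.168), and its level in the 2 siTead1/4 libraries of day 0 was 28.9 and 4.499 CPM. That difference of Tead1 was called by DESeq2 (-2.47, adjusted p = 0.00321) and by edgeR without a filter on low counts (-2.50), with all 24 libraries (-2.45) or without siTead1/4 replicate 1 (-4.34).

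Genes are placed on mm9, the build of the deposited table. Chrna1 (chr2:73401272-73418395) encodes the alpha subunit that carries the acetylcholine binding site, Chrnb1 (chr11:69597538-69609445) the beta subunit and Chrnd (chr1:89087227-89096644) the delta subunit. Chrng (chr1:89102386-89108410), the fetal gamma subunit, lies next to Chrnd on the same strand, and Chrne (chr11:70428385-70432718) encodes the adult epsilon subunit. The clustering genes are Musk (chr4:58298834-58390290), Rapsn (chr2:90875777-90885886), Dok7 (chr5:35399462-35430488) and Lrp4 (chr2:91297668-91354058), and Ache lies at chr5:137728747-137735694. All 10 are protein-coding. In GENCODE vM1 (same build) none shared more than 4 exonic bases with another gene, and the library kit did not keep the strand.

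Promoter sequences were taken from RefSeq (build GRCm38.p6, 250 bases before to 50 after the start of transcription, coordinates of that build), which held 7 of the 10 members. They are shown for the fetal and adult subunits, whose ratio was followed in each library, for Chrna1, the most abundant member, and for Ache, the member that changed with siTead1/4. Capitals mark matches, on either strand, to CAGCTG (an E-box, bound by myogenic bHLH factors), to CATTCC (an MCAT element, bound by Tead factors) and to CCGGAA (an N-box, bound by Ets factors).
Chrng (chr1:87205561-87205860, plus strand): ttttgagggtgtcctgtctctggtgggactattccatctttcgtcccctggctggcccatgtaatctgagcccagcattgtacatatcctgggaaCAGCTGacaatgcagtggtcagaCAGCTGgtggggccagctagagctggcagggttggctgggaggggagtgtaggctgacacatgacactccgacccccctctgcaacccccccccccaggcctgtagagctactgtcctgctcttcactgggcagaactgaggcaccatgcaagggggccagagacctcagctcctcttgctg
Chrne (chr11:70619145-70619444, minus strand): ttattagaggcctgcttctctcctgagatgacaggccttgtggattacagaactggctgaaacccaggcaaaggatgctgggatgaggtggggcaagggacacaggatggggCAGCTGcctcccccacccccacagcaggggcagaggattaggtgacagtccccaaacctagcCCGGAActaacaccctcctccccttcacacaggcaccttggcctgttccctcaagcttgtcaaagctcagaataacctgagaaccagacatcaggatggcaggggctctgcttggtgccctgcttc
Chrna1 (chr2:73580289-73580588, minus strand): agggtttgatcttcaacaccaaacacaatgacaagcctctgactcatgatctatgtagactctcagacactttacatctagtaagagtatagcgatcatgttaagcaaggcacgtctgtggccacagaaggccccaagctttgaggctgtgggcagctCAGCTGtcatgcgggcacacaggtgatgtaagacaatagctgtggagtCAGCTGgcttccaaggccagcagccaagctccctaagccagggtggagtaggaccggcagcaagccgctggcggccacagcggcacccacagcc
Ache (chr5:137288004-137288303, plus strand): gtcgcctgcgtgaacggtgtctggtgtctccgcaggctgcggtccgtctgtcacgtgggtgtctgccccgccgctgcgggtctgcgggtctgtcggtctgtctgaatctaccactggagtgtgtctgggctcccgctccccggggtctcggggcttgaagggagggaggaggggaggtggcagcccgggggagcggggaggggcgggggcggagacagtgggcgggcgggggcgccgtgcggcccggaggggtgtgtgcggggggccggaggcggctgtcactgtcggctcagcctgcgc

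Counting position 0 as the start of transcription, CAGCTG began at -155 and -132 in the Chrng window, at -92 and -44 in that of Chrna1, at -138 in that of Chrne and at -68 in that of Musk. Of all 32851 promoter windows in the RefSeq table, 16.3% held this hexamer. CCGGAA was found in 1 member window, that of Chrne, at -76, and in 14.9% of all windows. CATTCC was found in 1 member window, that of Chrnb1, at -21, and in 14.7% of all windows. The Ache window, with 74% G and C against a median of 52.7% over all windows, held none of these 3 hexamers and 1 match, at -199, to the looser E-box CANNTG, which includes CAGCTG and occurred in 72.3% of all windows. These matches describe letters in the windows shown and no binding.

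Per kilobase, Chrna1 was the most abundant member in 24 of 24 libraries and Chrne the least abundant in 19. Chrng was second in 20 libraries, the exceptions being the 4 C2C12 libraries of day 0, where it was in eighth place. In siControl PMs at day 6 the mean levels were 456.1 CPM per kb for Chrna1, 337 for Chrng, 193.4 for Chrnd and 130.7 for Chrnb1, and neighbours among these 4 overlapped between their 2 libraries. Rapsn followed at 58.7, Musk at 24.8, Dok7 at 21.7, Ache at 13.2, Lrp4 at 11.2 and Chrne at 10.7 CPM per kb. Of the 9 pairs of neighbours in this order, 6 had overlapping libraries. The separate steps were those from Chrnb1 to Rapsn, from Rapsn to Musk and from Dok7 to Ache.

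**Figure D1:**
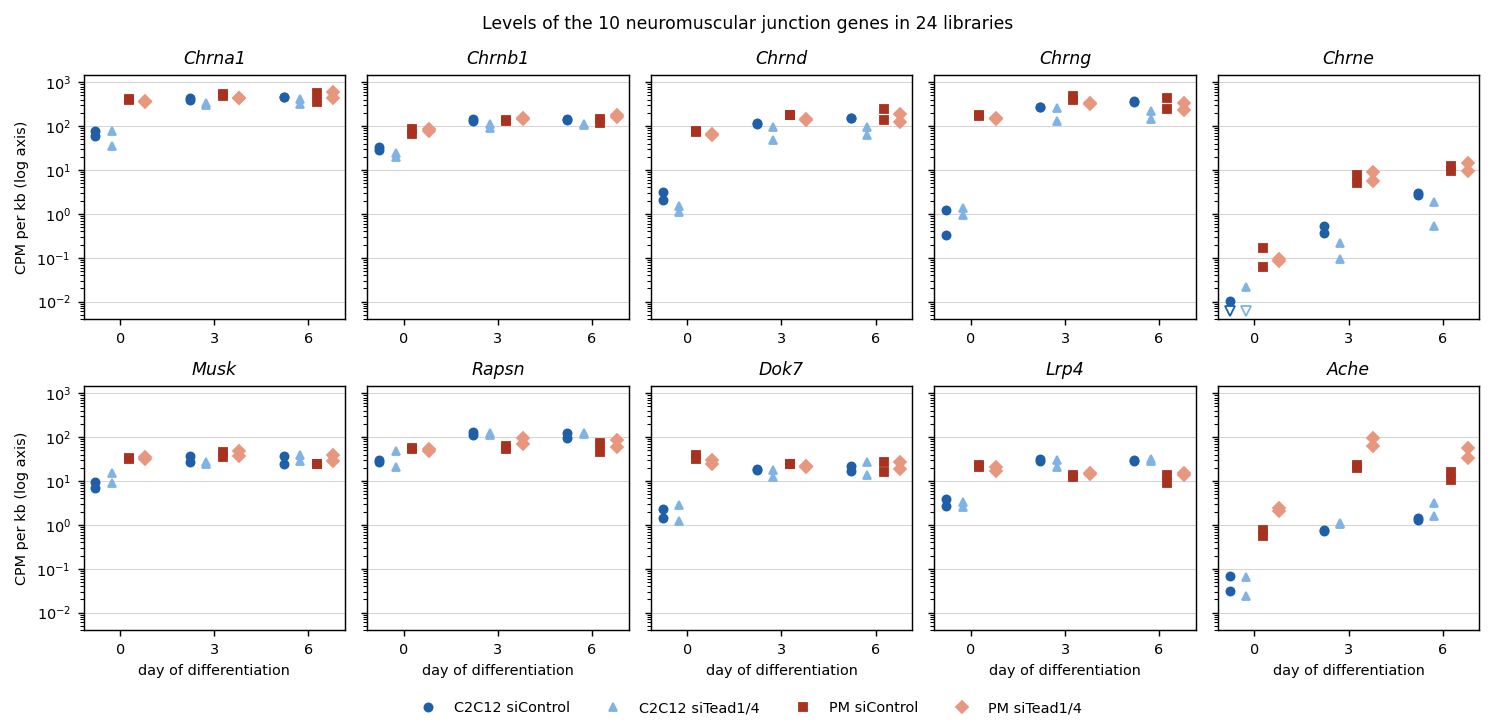
Level of each member in the 24 libraries, as CPM per kilobase on a log axis, by day of differentiation (1 point per library, 2 per group). Open triangles at the foot of the Chrne panel stand for libraries with 0 counts. Chrng and Chrnd start low in C2C12 cells at day 0 and high in PMs, Chrne stays below Chrng in every library, and Ache is higher in PMs than in C2C12 cells at each day.

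Differentiation was followed first in siControl cells. In C2C12 cells all 10 members were called higher at day 3 than at day 0, where 16% of the 15303 tested genes were called higher, and all 10 at day 6, against 17.1%. The median log2 fold change of the members was 3.22 at day 3 and 3.23 at day 6, beside -0.01 over all genes at both days. The 6 myotube markers (Myog, Myh3, Acta1, Ckm, Tnnt3 and Mylpf) moved with them, from a summed level of 26.1 to 94.2 CPM at day 0 to between 17411 and 19273 CPM at day 3. In whole-culture RNA, fewer cells of a type and less RNA per cell cannot be told apart, and the part of the share of myotubes in these rises was not tested.

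Among the receptor subunits of C2C12 cells, Chrng stood at 2.31 and 0.622 CPM in the 2 siControl libraries of day 0. It reached 521.4 and 517.1 CPM on day 3, then 709.3 and 682.8 CPM on day 6. No library of day 0 came near those of the later days, with a log2 fold change of 8.47 ± 0.66 for day 3 (edgeR adjusted p = 1.15e-05) and 8.90 ± 0.67 for day 6 (edgeR adjusted p = 8.34e-06). Chrnd, its neighbour on chromosome 1, went from 9.37 and 6.20 CPM to 349.1 and 341.7 CPM at day 3 (log2 fold change 5.43 ± 0.40). Chrna1 and Chrnb1 were already expressed in myoblasts, at 348.0 and 268.4 CPM and at 73.9 and 61.8 CPM, and rose by less (2.51 ± 0.35 and 2.07 ± 0.19 at day 3). Chrne had 0 and 1 counts in the 2 libraries of day 0, so its rise is given as a bound against 3 counts per library: Chrne was at least 11.2-fold higher on day 3 (0.637 and 0.911 CPM), rising to at least 68.4-fold on day 6 (4.47 and 4.95 CPM).

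The genes of the clustering pathway rose together in C2C12 cells, although by different amounts. Between day 0 and day 3 Dok7 rose by 3.27 ± 0.46 on the log2 scale, Lrp4 by 3.17 ± 0.27, Rapsn by 2.06 ± 0.34 and Musk by 1.93 ± 0.31. Lrp4, the agrin receptor, moved from 41.3 and 28.6 CPM to 302.6 and 345.9 CPM. Ache rose from 0.197 and 0.0889 CPM to 2.19 and 2.13 CPM on day 3 and to 3.70 and 4.21 CPM on day 6, which leaves it the least abundant member with Chrne.

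No member was called between days 3 and 6 in C2C12 cells, where 0% of genes were called by edgeR and 19 genes by DESeq2. Only Chrne had an unadjusted edgeR p under 0.05 among the members, with a log2 fold change of 2.60 ± 0.61 (edgeR adjusted p = 1). The 2 libraries of day 6 were both above the 2 of day 3. DESeq2 called this difference (2.61, adjusted p = 0.0386), and so did edgeR without a filter on low counts (2.59, adjusted p = 5.68e-06).

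PMs expressed most members at day 0 already. At day 3 of differentiation 4 members were called higher (Chrnd, Chrng, Chrne and Ache), where 17.5% of the 16144 tested genes were called higher, and none lower. At day 6 Chrnd, Chrne and Ache were called higher, against 20.2% of genes, and Lrp4 was called lower, against 15.3% of genes. The median over the members was 0.51 at day 3 and 0.39 at day 6, beside 0.01 and 0.03 over all genes. No member was called between days 3 and 6 of PMs, where 2.8% of genes were called. Musk had an adjusted p of 0.0414 there with a log2 fold change of -0.72 ± 0.18 (edgeR), under the fold threshold. The comparisons of days 3 and 6 with day 0 share the siControl libraries of day 0. Beside these changes, the summed level of 5 fibroblast markers was 52.9 to 79.6 CPM at day 0 and 1842 to 2916 CPM at day 6 of siControl PMs, and that of the 6 myotube markers went from 8980 and 9881 CPM to between 31260 and 34530 CPM. Their part in the levels of the members was not tested.

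Chrne and Ache were the members with the largest rises in PMs. Chrne stood at 0.106 and 0.282 CPM (5 and 10 counts) on day 0. Its level was 12.9 and 8.42 CPM on day 3 (log2 fold change 5.78 ± 0.46, edgeR adjusted p = 2.81e-06) and 15.7 and 20.4 CPM on day 6 (6.53 ± 0.46, edgeR adjusted p = 1.03e-06). Ache stood at 1.59 and 2.14 CPM on day 0, then at 65.9 and 56.0 CPM on day 3 (4.99 ± 0.35) and 45.0 and 30.7 CPM on day 6 (4.29 ± 0.34). For both genes the libraries of day 0 lay apart from those of the later days.

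The other subunits changed by smaller amounts. Chrng moved from 329.1 and 353.9 CPM to 915.5 and 767.8 CPM at day 3 (1.25 ± 0.25, called) and to 467.4 and 827.4 CPM at day 6 (0.86 ± 0.25, edgeR adjusted p = 0.0109, under the fold threshold). The 2 libraries of day 6 were far apart, and without replicate 1 of that group the change of Chrng was called (1.22). Chrnd, at 222.1 and 238.0 CPM on day 0, reached 533.9 and 535.2 CPM on day 3 and 424.1 and 751.4 CPM on day 6 (1.16 ± 0.24 and 1.29 ± 0.24), and its call at day 6 was lost without replicate 2 (0.81). Chrnb1 had an adjusted p of 0.00144 at day 3 with a log2 fold change of 0.73 ± 0.15 (edgeR), under the fold threshold, and Chrna1 lay at 1758 and 1828 CPM on day 0 against 2359 and 2098 CPM on day 3 and was not called.

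Lrp4 went the other way in PMs. It stood at 251.6 and 226.9 CPM on day 0, then at 131.4 and 149.6 CPM on day 3 and 93.9 and 143.0 CPM on day 6, with all 4 later libraries below both of day 0. The log2 fold change was -0.82 ± 0.18 at day 3 (edgeR adjusted p = 0.00258, under the fold threshold) and -1.08 ± 0.18 at day 6 (edgeR adjusted p = 0.000425, called). The call at day 6 was lost without siControl replicate 1 of day 0, and without replicate 1 of day 6 (-0.80). Dok7, the MuSK adaptor, had a log2 fold change of -0.78 ± 0.25 at day 6 (edgeR adjusted p = 0.0189), which was called only without replicate 2 of day 6 (-1.25).

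**Figure D2:**
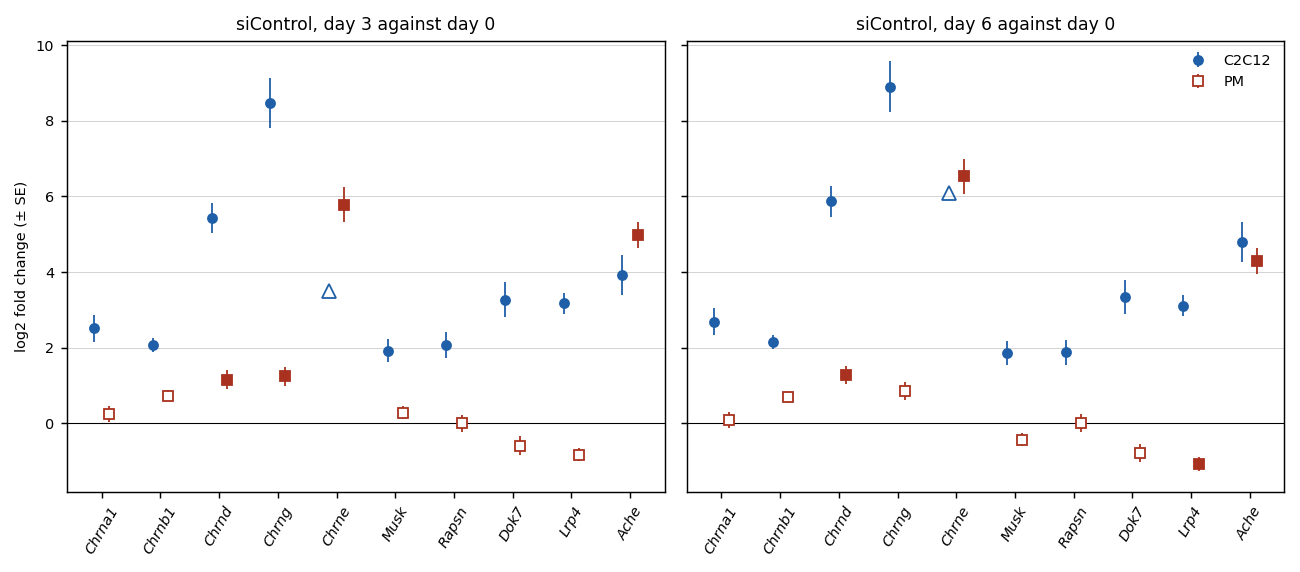
Log2 fold change of each member in siControl cells at day 3 (left) and day 6 (right) against day 0, with its SE, from edgeR fits of each cell type. Filled symbols were called and open squares were not, and the open triangles for Chrne in C2C12 cells are lower bounds. The C2C12 changes lie above 1.8 for each member. In PMs Chrne and Ache lie above 4, and 3 members lie below 0 at each day, among them Lrp4 and Dok7.

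The 2 cell types were compared directly with all 24 libraries in 1 fit. At day 0, 9 members were called higher in siControl PMs than in siControl C2C12 cells, where 16.3% of the 16926 tested genes were called higher. Rapsn was the exception (log2 difference 0.95 ± 0.30, edgeR adjusted p = 0.0198, under the fold threshold). The difference was 7.93 ± 0.55 for Chrng, 4.89 ± 0.36 for Chrnd, 4.27 ± 0.42 for Dok7, 3.77 ± 0.52 for Ache, 2.78 ± 0.24 for Lrp4, 2.54 ± 0.30 for Chrna1, 1.95 ± 0.27 for Musk and 1.30 ± 0.16 for Chrnb1. For Chrne the PM mean was 2.81-fold the floor of 3 counts per library in C2C12 cells. This bounds the C2C12 side only, since the PM mean rests on 5 and 10 counts (0.106 and 0.282 CPM). The call of Chrne was lost in 3 of the 4 fits that left out 1 library. The myotube markers summed to 8980 and 9881 CPM in the 2 siControl libraries of PMs at day 0, against 26.1 and 94.2 CPM in C2C12 cells, and the part of this difference in those of the members was not tested.

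By day 3 most of these differences were no longer called. Chrne (log2 difference 3.77 ± 0.52) and Ache (4.82 ± 0.37) were still higher in PMs, Rapsn (-1.10 ± 0.30) and Lrp4 (-1.21 ± 0.22) were lower, and 29.8% of genes were called in either direction. The call of Rapsn was lost without replicate 1 of the PM libraries (-1.02). At day 6 Chrne (1.94 ± 0.46) and Ache (3.26 ± 0.35) were higher and Lrp4 (-1.39 ± 0.22) was lower, among 24.9% of genes called. Rapsn was at -0.88 ± 0.30 (edgeR adjusted p = 0.0303) on that day.

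The changes over time differed between the cell types for 8 of the 10 members, at day 3 and at day 6, when tested as an interaction. Its value is the difference between the cell types at the later day minus that at day 0, from the same fit. All 8 had a smaller rise, or a fall, in PMs, where 7.44% and 7.43% of genes were called in that direction. The difference at day 3 was -7.23 ± 0.64 for Chrng, -4.26 ± 0.46 for Chrnd, -3.98 ± 0.32 for Lrp4 and -3.85 ± 0.54 for Dok7. Neither Ache nor Chrne was called, and no size is given for Chrne because the fitted value rests on its 0 and 1 counts at day 0 of C2C12 cells.

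The share of the adult subunit was then followed within each library, as the Chrne counts among the counts of Chrne and Chrng together. In siControl PMs it was 0.0322% and 0.0796% on day 0, then 1.39% and 1.08% on day 3 and 3.25% and 2.41% on day 6. The days did not overlap, and Chrng remained the larger of the pair in each library. Per kilobase the mean share at day 6 was 3.21% ± 0.68 (SD, n = 2). In C2C12 cells the siControl share was 0.122% and 0.176% at day 3 and 0.627% and 0.719% at day 6. At day 0 of C2C12 cells it rested on 0 or 1 Chrne counts beside 35 to 82 Chrng counts: of the 2 siControl libraries, 1 had 0 of 82, which allows up to 3.66%, and the other 2.78% with an exact 95% interval of 0.0703% to 14.5%. These limits cover counting error only.

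In PMs the log2 ratio of Chrne to Chrng was 5.35 higher at days 3 and 6 than at day 0, over both siRNAs (p = 0.00444 in a two-sided exact permutation test, the smallest that its 225 arrangements allow; adjusted p = 0.0178 over 4 ratio tests). All 8 later libraries were above all 4 of day 0. Without any 1 library of day 0 the difference was 5.04 to 5.66 and its adjusted p 0.0533, the smallest that could then be reached. The same comparison in C2C12 cells gave -2.47 (exact permutation p = 0.0311, adjusted p = 0.0622) and depends on the 0.5 counts added to the 0 counts of day 0. Between days 3 and 6 the C2C12 share was higher at day 6 in each siRNA, with a mean log2 ratio of -9.39 ± 0.37 (SD, n = 2) at day 3 and -7.21 ± 0.14 at day 6 in siControl cells. This step was not tested.

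**Figure D3:**
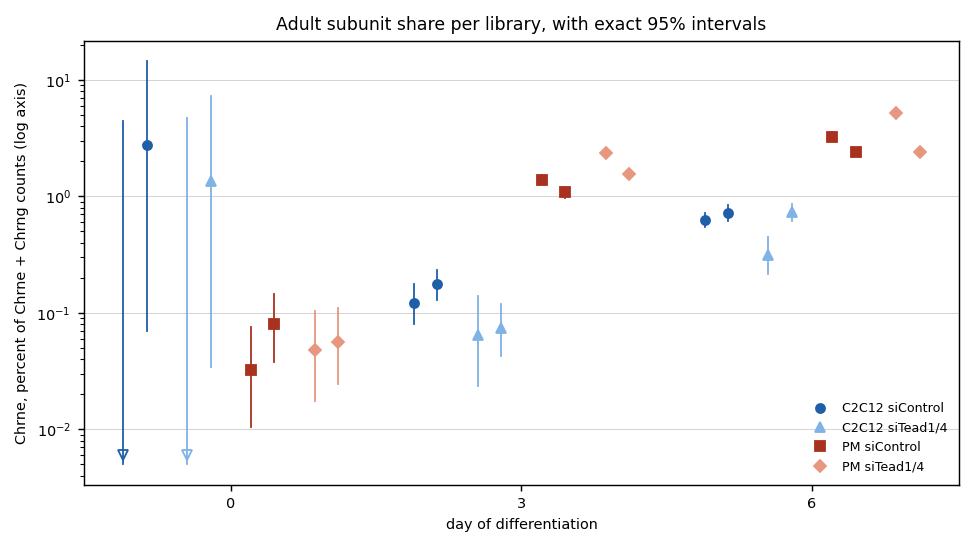
Chrne counts as a percentage of Chrne plus Chrng counts in each library, on a log axis, with exact 95% binomial intervals, by day. Open triangles stand for libraries with 0 Chrne counts, whose bars run to the foot of the axis. In PMs the share goes from under 0.1% at day 0 to between 2.41% and 5.19% at day 6, and in C2C12 cells it stays under 1% at days 3 and 6.

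Silencing of Tead1 and Tead4 was compared with siControl at each day. In C2C12 cells edgeR called no member at days 0, 3 and 6, where 0.438%, 1.27% and 0.0457% of genes were called. At day 3 the direction was negative for 9 of 10 members, with a median of -0.38 beside 0.01 over all genes. Chrne had 0.637 and 0.911 CPM with siControl and 0.159 and 0.371 CPM with siTead1/4 (-1.56 ± 0.68, edgeR adjusted p = 0.329). Chrnb1 was at 307.2 and 280.2 against 198.0 and 238.9 CPM (-0.45 ± 0.18, edgeR adjusted p = 0.286). The libraries of the 2 siRNAs did not overlap for either gene. They also stood apart for Chrna1, Chrnd, Chrng, Musk and Dok7, and in the other direction for Ache. With 2 libraries a group such separation is no test. The share of all tested genes whose libraries stood apart in this way was not counted, so nothing is read from these members.

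Chrnd and Chrng had lower levels in siTead1/4 C2C12 cells at day 6, without reaching a call. Chrnd had 457.8 and 477.8 CPM in siControl and 193.2 and 290.2 CPM in siTead1/4 cells at day 6 (-0.95 ± 0.33, edgeR adjusted p = 0.529), and -0.99 ± 0.35 at day 0. Chrng had 709.3 and 682.8 CPM against 282.6 and 427.4 CPM at day 6 (-0.97 ± 0.47, edgeR adjusted p = 0.774), while at day 0 its value was 0.64 ± 0.55. The summed level of the myotube markers was 6346 to 8988 CPM in siTead1/4 and 17411 to 19273 CPM in siControl libraries of day 3, with 1 of the 6 called lower, and 9232 to 16335 against 18281 to 20041 CPM at day 6, with 0 of the 6 called. What part they had in the subunit levels was not tested. Without a filter on low counts edgeR called Chrnd at day 0 (-1.02, adjusted p = 0.014) and Chrne at day 3 (-1.54, adjusted p = 0.033).

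In PMs 1 member was called at each day, and it was Ache, which was higher after siTead1/4, where 1.5%, 2.1% and 0.465% of genes were called higher at days 0, 3 and 6. Ache stood at 1.59 and 2.14 CPM in siControl and 7.05 and 6.03 CPM in siTead1/4 libraries of day 0 (log2 fold change 1.81 ± 0.34, edgeR adjusted p = 0.0122). At day 3 the levels were 65.9 and 56.0 against 270.6 and 182.1 CPM (1.89 ± 0.28, edgeR adjusted p = 0.0038). At day 6 they were 45.0 and 30.7 against 164.3 and 95.1 CPM (1.78 ± 0.28, edgeR adjusted p = 0.0184). Every siTead1/4 library was above both siControl libraries of its day. At day 3 Ache was above Musk and Dok7 per kilobase in both siTead1/4 libraries, and below them in both siControl libraries.

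The call at day 3 held when any 1 library was left out, while at day 0 it was lost in 3 of 4 such fits (1.60 to 2.02) and at day 6 in 2 of 4 (1.34 and 1.53). Neurons also express Ache. Of the 5 motor neuron markers in the table (of 6 listed), Chat and Rbfox3 had 0 counts in all PM libraries, and the summed level of the 5 was 0.954 to 1.01 CPM in siControl and 1.36 CPM in siTead1/4 libraries of day 0, 1.43 to 1.69 against 1.22 to 1.35 CPM at day 3, and 4.30 to 4.99 against 1.39 to 1.61 CPM at day 6. Slc5a7, 1 of the 2 tested, was called lower at day 6 (-2.11 ± 0.34). Of 4 endothelial markers, Tek was called higher at day 0 (edgeR adjusted p = 0.0115), where their summed level was 2.93 to 8.71 CPM in siControl and 5.12 to 13.8 CPM in siTead1/4 libraries. The myotube markers summed to 34863 to 37705 CPM in siControl and 32960 to 35586 CPM in siTead1/4 libraries of PMs at day 3. At day 6 the fibroblast markers Dcn (-2.46 ± 0.39) and Lum (-2.79 ± 0.50) were called lower after siTead1/4, 2 of 4 tested. The summed level of the 5 fibroblast markers overlapped on that day, at 1842 to 2916 CPM in siControl and 1624 to 2477 CPM in siTead1/4 libraries. The part of the cells of any of these markers in the level of Ache was not tested.

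For the remaining 9 members of PMs the log2 fold changes of siTead1/4 lay between -0.44 and 0.49 over the 3 days. Chrng was at 915.5 and 767.8 against 640.9 and 610.1 CPM at day 3 (-0.44 ± 0.24, edgeR adjusted p = 0.326), and Musk, the receptor kinase, at 95.3 and 93.5 against 151.7 and 108.5 CPM at day 6 (0.46 ± 0.18, edgeR adjusted p = 0.315). The libraries did not overlap in these cases, but neither difference passed the test. Libraries also stood apart at day 3 for other members that were not called, such as Chrna1, Chrnb1 and Chrnd. The share of all genes that did so was not counted here either. The ratio of Chrne to Chrng was not separated by the siRNA in either cell type: the mean log2 difference was 0.34 in PMs (two-sided exact permutation p = 0.222 over 216 arrangements) and -0.66 in C2C12 cells (exact permutation p = 0.241), both with an adjusted p of 0.241.

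**Figure D4:**
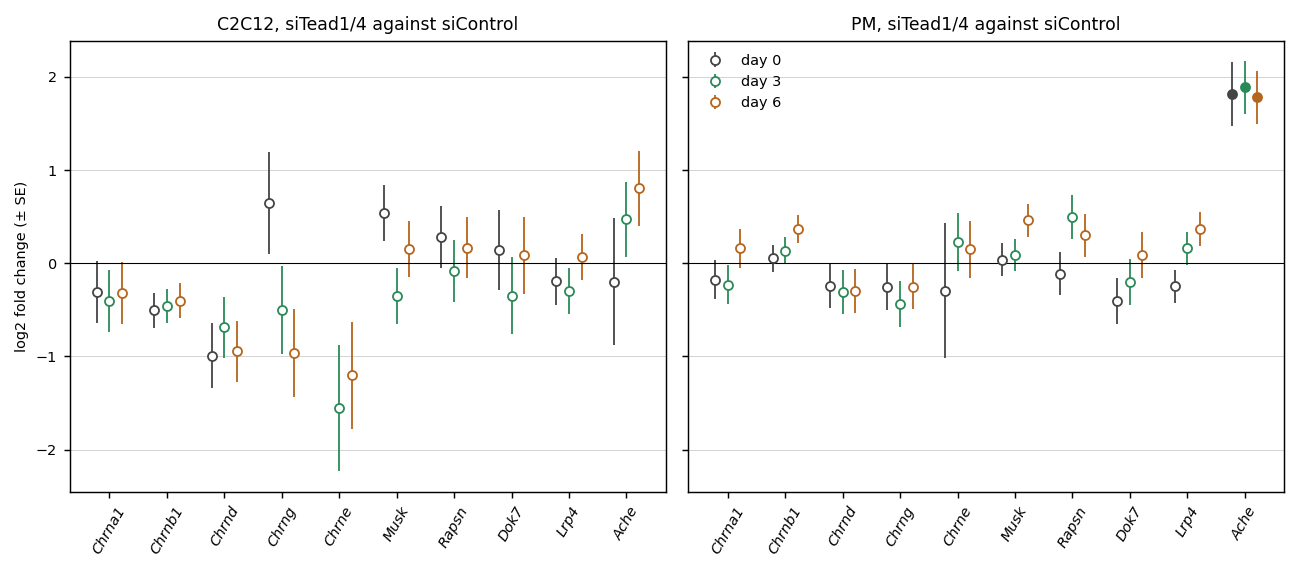
Log2 fold change of each member after siTead1/4 against siControl in C2C12 cells (left) and PMs (right) at days 0, 3 and 6, with its SE. Filled points were called, and Chrne at day 0 of C2C12 cells is left out because of its counts of 0 and 1. Ache in PMs, between 1.78 and 1.89, holds the filled points, and the other PM values lie within 0.5 of 0.

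Ache in C2C12 cells was far lower than in PMs and was not called. It stood at 2.19 and 2.13 CPM in siControl and 3.15 and 2.94 CPM in siTead1/4 libraries of day 3 (0.47 ± 0.41, edgeR adjusted p = 0.691), and at 3.70 and 4.21 against 4.52 and 9.20 CPM at day 6 (0.80 ± 0.40, edgeR adjusted p = 0.781). The siTead1/4 libraries were above the siControl ones at both days. The effect of silencing was therefore tested for a difference between the cell types. No member was called at days 0, 3 or 6, where 0.00591%, 1.25% and 0.0354% of genes were called. For Ache the difference at day 3 was 1.40 ± 0.47 (edgeR adjusted p = 0.175), and it was called without a filter on low counts (1.42, adjusted p = 0.0072).

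Of 47 other genes of the junction, chosen by role, 45 were tested in C2C12 cells and 47 in PMs. In siControl C2C12 cells 15 rose and 3 fell by day 3, and 13 rose and 4 fell by day 6, while in PMs 13 rose and 5 fell by day 3 and 16 rose and 5 fell by day 6. The 18 calls in C2C12 cells at day 3 were 17 in each other analysis of all libraries of these groups. Without 1 library they were 15 to 16. The rises were 33.3% and 28.9% of the tested list in C2C12 cells, beside 16% and 17.1% of all genes, and 27.7% and 34% in PMs, beside 17.5% and 20.2%. The falls were 6.67% and 8.89% in C2C12 cells, beside 12.7% and 14% of all genes, and 10.6% at both days in PMs, beside 14.9% and 15.3%. Scn4a, the sodium channel of the muscle membrane, had 0.141 and 0.213 CPM at day 0 of C2C12 cells and 123.8 and 168.2 CPM at day 3, and rose by 2.57 ± 0.17 on the log2 scale in PMs. Colq, the collagen tail of acetylcholinesterase, had 0 and 4 counts at day 0 of C2C12 cells and 9.58 and 11.2 CPM at day 3, and in PMs rose from 2.42 and 1.78 CPM to 28.7 and 18.4 CPM (3.42 ± 0.32). Col13a1, a transmembrane collagen of the junction, had 0 and 1 counts at day 0 of C2C12 cells and reached 2.03 and 3.81 CPM at day 3 and 5.45 and 7.82 CPM at day 6. Among the falls, Etv4, an Ets factor, changed by -2.37 ± 0.33 in C2C12 cells and -2.48 ± 0.13 in PMs at day 3, and Dtnb, a dystrobrevin, by -1.35 ± 0.26 and -1.29 ± 0.13. Src, a kinase, had a fold change at the threshold in C2C12 cells (-1.01 ± 0.26 at day 3), and its call was lost in 5 other analyses and in 2 fits without 1 library. Pak1, a kinase downstream of MuSK, fell by 1.89 ± 0.11 in PMs at day 6, and Myod1, the myoblast factor, by 1.60 ± 0.24. Between days 3 and 6, Etv4 was the listed gene called in PMs (1.45 ± 0.13) and none was called in C2C12 cells.

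Agrn, the muscle transcript of the ligand of Lrp4, was called in no comparison of siRNAs, days or cell types. Myog, the myogenic factor that also controls receptor genes, went from 9.68 and 2.91 CPM at day 0 to 1154 and 1125 CPM on day 3 in C2C12 cells with siControl and lay between 857.9 and 1168 CPM in all 6 siControl libraries of PMs. Utrn, the dystrophin relative at the junction, was called higher in C2C12 cells at day 3 (1.18, edgeR adjusted p = 0.047). The mean of its siControl libraries was 174.8 ± 56.5 CPM (SD, n = 2) at day 0 and 406.7 ± 116.7 CPM at day 3. Utrn was not called by siTead1/4.

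After siTead1/4 few of these genes were called. In PMs the called genes were Colq, lower at day 0, and Erbb4, higher at days 3 and 6. Each was 2.13% of the tested list. Of all genes, 1.1% were called lower at day 0, and 2.1% and 0.465% higher at days 3 and 6. In C2C12 cells 1 listed gene was called lower at day 3, which was 2.22% of the list beside 1.08% of all genes. Colq stood at 2.42 and 1.78 CPM with siControl and at 0.188 and 0.316 CPM with siTead1/4 at day 0 (-3.03 ± 0.44, edgeR adjusted p = 0.0038). At days 3 and 6 of PMs it was at -0.36 and -0.51 and was not called. In C2C12 cells Colq was at -1.45 at day 3 (edgeR adjusted p = 0.0851) and -1.16 at day 6 (0.406), with siTead1/4 libraries below siControl ones at both days, and DESeq2 called both (-1.47 and -1.17).

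Erbb4 encodes a neuregulin receptor found at the junction. It had 0 or 1 counts in the 12 C2C12 libraries. In PMs it had 9 counts in each siControl library of day 3 and 330 and 251 counts with siTead1/4 (0.253 and 0.228 against 7.08 and 6.25 CPM, log2 fold change 4.77 ± 0.52), and at day 6 the levels were 0.518 and 0.685 against 6.58 and 3.35 CPM (3.04 ± 0.48). The siTead1/4 libraries were above the siControl libraries at both days, and the call at day 6 was lost in 3 of the 4 fits without 1 library (2.48 to 3.26). In C2C12 cells the called gene was Hdac9, a deacetylase that acts on activity-dependent receptor transcription, with 32.5 and 25.1 CPM in siControl and 6.54 and 5.30 CPM in siTead1/4 libraries of day 3 (-2.31 ± 0.31). Its effect differed between the cell types at that day (2.91 ± 0.36), with 16.0 and 20.6 against 31.1 and 25.5 CPM in PMs. The C2C12 call was lost in 3 of 4 fits without 1 library (-2.12 to -2.48).

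**Figure D5:**
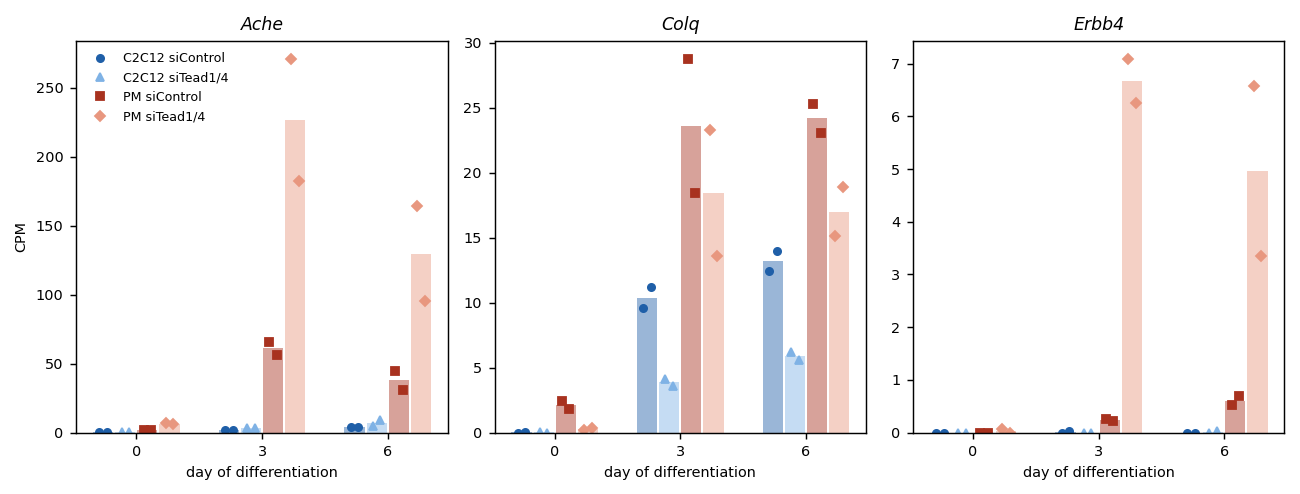
CPM of Ache, Colq and Erbb4 by day, on linear axes from 0 with a separate scale for each gene (points are libraries, bars are means of 2). Ache and Erbb4 are higher with siTead1/4 in PMs at days 3 and 6, and the siTead1/4 points of Colq lie below those of siControl in C2C12 cells at these days.

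Across the 24 libraries Chrnd was close to Chrng in its pattern of log2 CPM (Pearson r = 0.984), as was Chrna1 (0.975), and Chrne was closest to Ache (0.897). Chrne and Chrng had r = 0.72, and Lrp4 and Chrne r = 0.364. These values describe 2 cell types and 3 days that all members share. The genes outside the members with the pattern most like Chrng were Tmem8c (0.993), Casq2 (0.988) and Tnnt1 (0.987). For Chrne they were Chrna10 (0.977), Atg4a (0.974) and Sh3bgr (0.969), and for Ache Eepd1 (0.970), Ctsc (0.969) and Ephb1 (0.968).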

How the data were processed

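Poly(A) RNA of 24 libraries was sequenced (C2C12 cells and PMs, siControl or siTead1/4, days 0, 3 and 6, 2 replicates each). The authors deposited 1 table of raw read counts per gene, made per the labels with CASAVA 1.8.2, TopHat2 2.0.10, Bowtie2 2.1.0 and HTSeq 0.6.1 on mm9 (Ensembl release not given in the sources used here). Reads that HTSeq cannot assign to 1 gene are left out of such counts. Size-factor-normalized columns and 36 columns of 12 other libraries were not used.

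Counts were tested in R 4.3.3 with edgeR 4.0.16 (TMM, filterByExpr, quasi-likelihood), C2C12 cells and PMs being fitted separately (12 libraries and 6 group means each). Differences between cell types used all 24 libraries. SEs were taken as the size of the fold change divided by the square root of F. The Chrne to Chrng ratio was tested on log2 counts plus 0.5 by exact permutation within strata (scipy 1.17.1). At 25453830 to 52784510 counts per library, 3 counts were taken as the floor for a fold against libraries with 0 or 1 counts. Alternatives were RLE scaling, no filter, DESeq2 1.42.0, a replicate block, all 24 or only 4 libraries, leaving out each library, and another pseudocount or counts per kilobase for the ratio. The scripts were tested on simulated data.

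The members and the lists of other junction genes and cell type markers were chosen with earlier results of these data known. All members were named, with Tead1, Tead4, Agrn, Colq, Utrn, Myog, the 3 largest called rises and falls among the other junction genes, and the 3 genes most like Chrng, Chrne and Ache.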

Additional observations from a re-analysis of the deposited data

Results flagged for a closer look

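The change of 8 members during differentiation differed between PMs and C2C12 cells when the difference itself was tested in siControl libraries (edgeR, interaction of cell type and day). The values are log2 differences of the PM change from the C2C12 change. All 8 were negative, a direction in which 7.44% of all tested genes were called at day 3 and 7.43% at day 6. At day 3 against day 0 they were -2.24 for Chrna1, -1.32 for Chrnb1, -4.26 for Chrnd, -7.23 for Chrng, -1.62 for Musk, -2.05 for Rapsn, -3.85 for Dok7 and -3.98 for Lrp4. At day 6 against day 0 they were -2.57 for Chrna1, -1.43 for Chrnb1, -4.56 for Chrnd, -8.03 for Chrng, -2.26 for Musk, -1.83 for Rapsn, -4.10 for Dok7 and -4.17 for Lrp4. The call of Rapsn at day 6 was lost without PM replicate 1 of that day (-1.53, edgeR adjusted p = 0.0516). Both days share the libraries of day 0. Each value also restates the differences between the cell types at the later day and at day 0 given above, and is no separate evidence. Cell type, strain, culture conditions and the level of myotube markers at day 0 (26.1 to 94.2 CPM in C2C12 cells, 8980 to 9881 CPM in PMs) went together and cannot be told apart here. With 2 libraries in each group, none could be checked for standing apart from its group.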

How the results depend on the processing

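Of 264 recomputed counts of called members and ratios, 247 were taken as the same. For the ratios this meant the same side of the threshold. A count of called members near the main one was also taken as the same, even where it had moved. On leaving out 1 library this held for 3 members called instead of 4 at day 6 against day 0 of siControl PMs. Between the cell types it held for 8 instead of 9 at day 0, 3 instead of 4 at day 3 and 4 instead of 3 at day 6. For the interaction at day 6 it held for 7 instead of 8. Without a filter on low counts, 1 member was called by silencing in C2C12 cells at day 0 (Chrnd) and day 3 (Chrne), 1 between days 6 and 3 of C2C12 cells (Chrne) and 1 for the difference of the silencing effect between cell types at day 3 (Ache). DESeq2 called 1 member between days 6 and 3 of C2C12 cells. With only the 4 libraries compared, 0 members were called by silencing in PMs at day 6 (Ache 1.78, edgeR adjusted p = 0.166). On leaving out 1 library the count was 0 to 1 by silencing in PMs at day 0 and at day 6. The ratio of Chrne to Chrng over days in C2C12 cells was -3.85 with a pseudocount of 2 counts (exact permutation, adjusted p = 0.00889), and in PMs it was 5.04 to 5.66 without 1 library. For single genes, leaving out 1 library turned the direction of siTead1/4 differences that were not called: Ache at day 0 of C2C12 cells (-0.93 to 0.44), Chrng at day 0 of C2C12 cells (-0.065 to 1.83) and Chrng at day 6 of PMs (-0.61 to 0.23). The cause was not tested.

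The replicate numbers come from the labels, which name no shared batch. Correlations of deviations between same-numbered libraries were -0.17 to 0.47 in C2C12 cells (6 of 15 group pairs over 0.1) and 0.05 to 0.50 in PMs (14 of 15, among them 0.38, 0.41 and 0.50 between the siRNAs at days 0, 3 and 6). The numbers were to be taken as pairs only with every value over 0.1, which C2C12 cells missed widely and PMs in 1 pair, so that shared replicate sets in PMs remain possible. With a replicate block the ratio over days in C2C12 cells was -2.47 (exact permutation, adjusted p = 0.0356), and no count of called members moved.

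Counts over all genes moved by more than 1.5 times for silencing, between days 6 and 3, and for the silencing effect between cell types. For silencing in C2C12 cells edgeR called 67, 195 and 7 genes at days 0, 3 and 6, DESeq2 255, 604 and 142, edgeR without a filter 480, 1055 and 387, with all 24 libraries 245, 690 and 88, and with only 4 libraries 0, 7 and 0. In PMs 420, 532 and 120 genes were called, 204, 312 and 60 with all 24 libraries, 804 and 335 without a filter at days 3 and 6, 224 with DESeq2 at day 6, 290 with the replicate block at day 6, and 0 with only 4 libraries at day 6. Between days 6 and 3, C2C12 cells had 0, 19 by DESeq2 and 102 without a filter, and PMs 452, with 709 without a filter, 732 with the block, 164 with all 24 and 148 with only 4 libraries. The silencing effect differed between cell types for 1, 212 and 6 genes, 32, 494 and 60 by DESeq2, 88, 853 and 146 without a filter, and 5, 327 and 34 with the block.

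With 2 libraries a group, a test of 2 against 2 libraries alone cannot pass a permutation threshold, and an effect of siTead1/4 on Chrne at day 0 of C2C12 cells (0 and 1 counts with either siRNA) was not detectable at this depth.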

Other observations

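Other genes of the junction were also compared between siControl PMs and C2C12 cells. Of the 47 other junction genes 10 were called higher and 3 lower in PMs at day 0, 10 higher and 5 lower at day 3, and 5 higher and 2 lower at day 6. The shares called higher were 21.3%, 21.3% and 10.6%, beside 16.3%, 17.2% and 15.7% of all genes, and those called lower 6.38%, 10.6% and 4.26%, beside 10.5%, 12.6% and 9.22%. At day 0 the largest differences were those of Col13a1 (7.52 and 6.51 CPM in PMs, 0 and 1 counts in C2C12 cells), Scn4a (log2 difference 7.62 ± 0.38) and Myog (7.33 ± 0.60). Nrg1, which encodes neuregulin, was lower in PMs at each day (-3.10 ± 0.45, -2.48 ± 0.43 and -1.47 ± 0.41), and Src was lower at days 0 and 3 (-1.18 ± 0.21 and -1.14 ± 0.21), as was Etv4 at day 0 (-1.05 ± 0.25).

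A pair of basement membrane genes went in opposite directions. Lama4, a laminin chain, was higher in PMs at day 3 (10.3 and 5.84 against 0.260 and 0.951 CPM, 3.71 ± 0.64) and at day 6 (18.0 and 10.9 against 0.964 and 1.24 CPM, 3.72 ± 0.62). Nid2, a nidogen, was lower in PMs at day 3 (59.3 and 108.9 against 260.6 and 289.8 CPM, -1.71 ± 0.45) and at day 6 (39.8 and 68.0 against 243.7 and 240.3 CPM, -2.17 ± 0.46). Dach2, a repressor that links nerve activity to receptor genes, had 43 and 17 counts in siControl PMs at day 6 and 0 counts in both C2C12 libraries of that day. For the change from day 0 to day 3, 9 of the 47 listed genes were called lower in PMs than in C2C12 cells and 2 higher. These were 19.1% and 4.26% of the list, beside 7.44% and 3.79% of all genes. The change was lower in PMs for Myog and Scn4a (differences of -7.41 ± 0.72 and -6.98 ± 0.45), among others. It was higher for Lamb2, the laminin chain of the synaptic cleft (1.03 ± 0.22), and Dvl1 (1.13 ± 0.21).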
